A study of Mus musculus with 8 samples.

Results

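The genes described here are the integrin subunits of leukocytes: *Itgal*, *Itgam*, *Itgax* and *Itgb2*, *Itgae* and *Itgb7*, *Itga4* and *Itgb1*, and *Itga6* and *Itgav*. They were chosen by their symbols, are 10 of the 32285 genes in the deposited matrices, and each had at least 1 UMI (unique molecular identifier, 1 counted transcript) in every library. Antibody tags for 4 of them, CD11a (*Itgal*), CD11b (*Itgam*), CD11c (*Itgax*) and CD103 (*Itgae*), are among the 87 tags counted on the same cells. An integrin is a pair of an alpha and a beta chain that spans the membrane and grips ligands on other cells or in the matrix. On leukocytes it is switched on from inside the cell, when talin and kindlin bind the beta chain, and it then carries arrest on vessels, crawling, phagocytosis and retention in tissue. The beta 2 chain pairs with alpha L, alpha M and alpha X, the beta 7 chain with alpha E and alpha 4, and the beta 1 chain with many alpha chains.

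The study asked how loss of *Nr4a1*, a nuclear receptor gene that non-classical monocytes depend on, alters immune cells in laser-induced choroidal neovascularization, a mouse model of neovascular macular degeneration. CD45+ cells of the retina and choroid were enriched from female mice aged 10 to 12 weeks and sorted, and RNA and antibody tags were sequenced in the same cells. The groups were *Nr4a1*-/- laser and WT laser, each pooled from 11 to 12 mice on day 3 after 8 burns per eye, and *Nr4a1*-/- control and WT control, each pooled from 22 control mice. For the control samples the titles say no laser and the treatment field says sham. The labels do not settle what these eyes received. WT mice were C57BL/6J and the study's methods give the knockout mice as B6;129S2-Nr4a1tm1Jmi/J, a deletion carried in every cell, so strain background cannot be told apart from genotype. Each group is 1 library of pooled eyes, so the spread between animals is unknown and no p-value was computed between groups. The library numbers in the labels set *Nr4a1*-/- control apart from the other 3, and a batch cannot be told apart from genotype in the control pair or from laser in the *Nr4a1*-/- pair. A fluorescent CD11b antibody was in the sort stain beside the CD11b tag, and its part in the tag counts was not tested.

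The 4 libraries held 1675 to 4008 cell barcodes each, 17 of which occurred in more than 1 library. Of 11624 cells, 11223 passed the limits on detected genes and mitochondrial UMIs. RNA depth ran from 7848548 UMIs in *Nr4a1*-/- laser to 38052948 in WT laser, and the median kept cell had 3676 UMIs in *Nr4a1*-/- laser, against 5202 to 7618 in the other libraries. A cell was given a lineage, written "X-like", when it had at least 3 of the 8 marker genes of that lineage and at least 2 more than of any other, and no integrin was among the markers. This placed 8320 cells (74.1%), of which 1278 lay at the limit and 1601 further cells fell 1 short of it. MDM-B-like cells are macrophages placed by *Spp1*, *Gpnmb*, *Arg1* and 5 further genes, and had 54 and 76 cells in the *Nr4a1*-/- and WT laser libraries against 6 in each control library. Non-classical monocyte-like cells numbered 0 in *Nr4a1*-/- laser and 1 in *Nr4a1*-/- control, against 124 in WT laser and 193 in WT control. *Nr4a1* itself was lower in the *Nr4a1*-/- than in the WT library in all 19 comparisons within a lineage (ratios 0.125 to 0.719), although its 3′ tags need not lie in the disrupted part. Levels are given in CPM, in which the UMI count of a gene is divided by the total of its lineage and library and scaled up by the same factor throughout. Fewer UMIs of a gene can mean fewer cells that use it or less RNA in each, and sums do not tell these apart.

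*Itgam* and *Itgax* are neighbors on chromosome 7 of GRCm38 (*Itgam* 128062640 to 128118491, *Itgax* 128129547 to 128150657, both on the plus strand), with 11.1 kb between them. *Itgal* lies on the same chromosome (127296260 to 127335138, plus), *Itgb2* on chromosome 10 (77530252 to 77565708, plus) and *Itgae* on chromosome 11 (73090583 to 73147446, plus). *Itga4* (79255426 to 79333123), *Itga6* (71745616 to 71858416) and *Itgav* (83724397 to 83806916) are on the plus strand of chromosome 2, and *Itgb1* is on chromosome 8 (128685654 to 128733200, plus). *Itgb7* is on the minus strand of chromosome 15 (102215995 to 102231944), 941.2 kb from *Nr4a1*, so that flanking DNA carried with the knockout allele cannot be told apart from genotype for this gene. RefSeq windows of 250 bases before the start were at hand for 6 of the 10 genes (*Itga4*, *Itgam*, *Itgav*, *Itgax*, *Itgb1* and *Itgb7*, GRCm38.p6). They were searched on both strands for a PU box, the core GAGGAA (reverse TTCCTC) bound by the myeloid factor PU.1, and for the RUNX core TGTGGT (reverse ACCACA), which share no overlap here. Of 32851 windows of this length, 23.25% held the PU box letters and 14.05% the RUNX letters. The 4 windows below are shown for the genes whose levels parted the myeloid lineages: *Itgam* and *Itgax* lie side by side and differ in pattern, *Itga4* was lowest in microglia-like cells and *Itgav* was highest there. Capitals mark the matches.
Itgam, chr7:128062390-128062639, plus strand: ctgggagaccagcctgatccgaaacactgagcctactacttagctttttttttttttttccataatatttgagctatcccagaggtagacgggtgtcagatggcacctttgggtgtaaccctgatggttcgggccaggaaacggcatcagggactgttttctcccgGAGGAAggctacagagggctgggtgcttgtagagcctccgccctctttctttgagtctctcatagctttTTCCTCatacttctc
Itgax, chr7:128129300-128129549, plus strand: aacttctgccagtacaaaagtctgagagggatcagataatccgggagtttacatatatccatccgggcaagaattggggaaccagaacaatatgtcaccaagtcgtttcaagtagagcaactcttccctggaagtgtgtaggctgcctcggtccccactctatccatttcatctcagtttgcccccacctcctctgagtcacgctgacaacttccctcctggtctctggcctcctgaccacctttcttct
Itga4, chr2:79255176-79255425, plus strand: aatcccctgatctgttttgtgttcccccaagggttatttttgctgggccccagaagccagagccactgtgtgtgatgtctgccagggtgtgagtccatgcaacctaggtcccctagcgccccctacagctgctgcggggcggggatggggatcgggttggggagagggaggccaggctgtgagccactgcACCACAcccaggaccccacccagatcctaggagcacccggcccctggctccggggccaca
Itgav, chr2:83724147-83724396, plus strand: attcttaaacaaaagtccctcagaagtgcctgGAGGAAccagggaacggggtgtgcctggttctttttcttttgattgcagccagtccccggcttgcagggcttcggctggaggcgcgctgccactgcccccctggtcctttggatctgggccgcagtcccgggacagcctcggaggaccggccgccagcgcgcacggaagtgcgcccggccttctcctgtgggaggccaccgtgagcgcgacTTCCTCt
The *Itgam* window held 2 PU box matches, starting 84 and 15 bases before the start, and the *Itgav* window held 2, at 218 and 7 bases. The *Itga4* window held 1 RUNX match 60 bases before the start and no PU box letters. The *Itgax* and *Itgb7* windows held neither, and the *Itgb1* window held 1 PU box match at 9 bases. A match describes the letters and does not show a bound site.

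**Figure D1:**
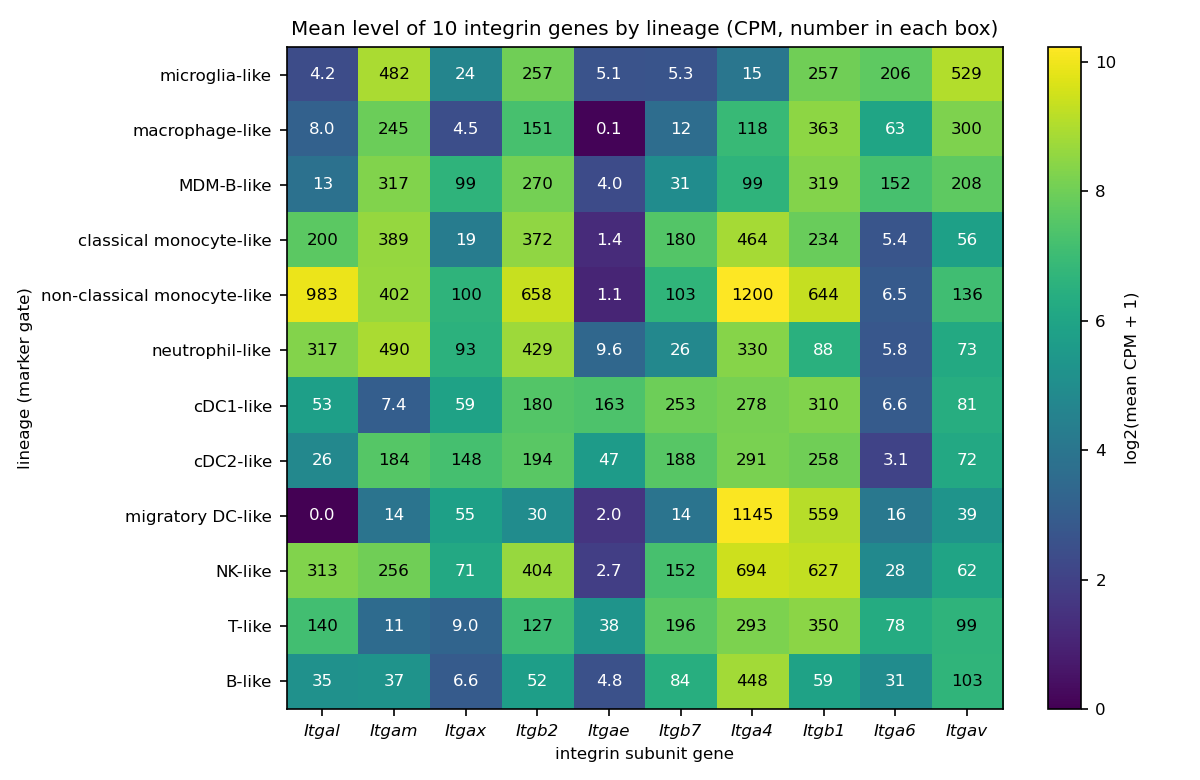
Mean level of each of the 10 integrin subunits (columns) in 12 lineages (rows), in CPM averaged over the libraries with at least 20 cells of the lineage, with the color on a log2(CPM + 1) scale and the number in each box. *Itgal* runs from 983 CPM in non-classical monocyte-like cells to 0 in migratory DC-like cells, and *Itgav* is highest in microglia-like cells at 529 CPM.

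The first comparison asked which lineages carry which subunit. UMIs were summed per lineage and library (41 sums of at least 20 cells, 12 lineages) and each lineage was set against the equally weighted mean of the others, with library as a block, by edgeR's quasi-likelihood test with Benjamini-Hochberg adjustment over 12456 genes. Of 120 tests of a member in a lineage, 78 passed an adjusted p of 0.05, with 49 higher and 29 lower. Non-classical monocyte-like cells were higher for 7 of the 10 members and lower for 1, where 15% of all genes tested were higher and 6.29% lower. NK-like cells were also higher for 7 and lower for 1, against a background of 25.7% and 18.4%. These are the lineages in which most integrin subunits stood above the mean of the others. Classical monocyte-like cells were higher for 5 and lower for 3 (background 25.5% and 10.1%). Neutrophil-like cells were higher for 4 and lower for 3 (21.5% and 23.2%), T-like cells were higher for 4 and lower for 3 (33.1% and 20.3%), and macrophage-like cells were higher for 4 and lower for 4 (29.8% and 16.6%). MDM-B-like cells were higher for 4 and lower for 2 (16.1% and 7.23%), and cDC2-like cells, conventional dendritic cells of type 2, were higher for 4 and lower for 1 (21.8% and 7.71%). Microglia-like cells and cDC1-like cells, dendritic cells of type 1, were each higher for 3 and lower for 2, against a background of 32.5% and 22.9% for microglia-like cells and of 22.3% and 13.9% for cDC1-like cells. B-like cells were higher for 2 and lower for 4 (33.5% and 20.2%), and migratory DC-like cells were higher for 2 and lower for 3 (11.2% and 4.41%). In microglia-like cells the members' shares lie near the background. Migratory DC-like cells had 1 sum, so their calls rest on a spread taken from the other lineages.

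*Itgal*, the alpha chain of LFA-1 (CD11a/CD18), the receptor for ICAM proteins that arrests leukocytes on vessels, was highest in non-classical monocyte-like cells. These held 984 CPM in WT laser and 981 in WT control, 5.10 ± 0.20 higher on the log2 scale than the mean of the other lineages (SE, edgeR adjusted p = 2.605e-22). That mean averages log levels and includes the 41 migratory DC-like cells, which had 0 UMIs of *Itgal*. The difference was 3.61 against all other cells of the library summed, a reference added once the data had been seen. NK-like cells came next with 318 CPM in *Nr4a1*-/- laser and 305 in WT laser, against 305 in *Nr4a1*-/- control and 324 in WT control. Neutrophil-like cells held 171, 314, 454 and 329 CPM in the same order of libraries and did not differ from NK-like cells (log2 difference of -0.45 for NK-like over neutrophil-like cells, adjusted p = 0.09484). Classical monocyte-like cells followed with 165 to 238 CPM and T-like cells with 110.3 to 183 CPM. T-like cells were 1.95 above the mean of the lineages but only 0.29 above the other cells summed, which did not pass (edgeR adjusted p = 0.4422). At the low end, *Itgal* had 4.22, 12.9, 6.10 and 8.77 CPM in macrophage-like cells and 2.02, 4.98, 6.98 and 2.64 CPM in microglia-like cells, in the order *Nr4a1*-/- laser, WT laser, *Nr4a1*-/- control, WT control. Both lineages held under 20 UMIs of *Itgal* in 1 or more libraries. The mean over lineages gave no defined error for these 2 lineages. Against the other cells summed both were lower, by -3.75 in macrophage-like cells (adjusted p = 1.9e-07) and by -4.94 in microglia-like cells (adjusted p = 5.9e-07). The non-classical monocyte-like and the microglia-like levels differ without any overlap between libraries.

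*Itgam*, the alpha chain of Mac-1 (CD11b), a receptor for complement fragments and fibrinogen, was shared by myeloid and NK-like cells. Microglia-like cells held 467 CPM in *Nr4a1*-/- laser and 519 in WT laser, against 489.9 in *Nr4a1*-/- control and 451 in WT control (log2 difference from the other lineages 2.18 ± 0.22, adjusted p = 6.0e-10). Neutrophil-like cells held 342, 444, 624 and 548 CPM in the same order (2.50 ± 0.24, adjusted p = 3.7e-10). Microglia-like, neutrophil-like, both monocyte-like, MDM-B-like, NK-like, macrophage-like and cDC2-like cells formed a run in which no neighbor differed from the next (edgeR adjusted p of 0.2509 to 0.773). cDC2-like cells held 96.5, 151.9, 256 and 229.7 CPM and were 2.71 above B-like cells, the next lineage (edgeR adjusted p = 4.1e-07). The run compares neighbors only: microglia-like and cDC2-like cells at its ends did not overlap between libraries. *Itgam* was lowest in cDC1-like cells, with 15.7, 8.30, 5.66 and 0 CPM, and it had 3.9 to 18.8 CPM in T-like cells. The step from cDC2-like to cDC1-like cells therefore divided the dendritic cells by this gene, with no overlap between libraries.

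*Itgax*, the alpha X chain (CD11c) of a complement receptor, which is used as a marker of dendritic cells, was highest in cDC2-like cells. They held 209.6 CPM in *Nr4a1*-/- laser and 164 in WT laser, against 136 in *Nr4a1*-/- control and 82.3 in WT control (2.47 ± 0.23, adjusted p = 2.2e-10). The next 6 lineages in order were non-classical monocyte-like (95.3 and 104 CPM in the WT libraries), MDM-B-like, neutrophil-like, NK-like, cDC1-like and migratory DC-like cells, and from cDC2-like cells down this run no neighbor differed from the next (edgeR adjusted p of 0.2426 to 0.7891). The steps on to microglia-like and classical monocyte-like cells did not pass either (edgeR adjusted p of 0.1301 and 0.4906). The first step to pass was classical monocyte-like over T-like cells (1.16, edgeR adjusted p = 0.01585). *Itgax* was thus not limited to dendritic cells here: MDM-B-like cells held 127 CPM in *Nr4a1*-/- laser and 70.6 in WT laser. The run compares neighbors only, and cDC1-like cells within it held 37.7 to 71.6 CPM, below every cDC2-like library. Macrophage-like cells were lowest, with 10.5, 1.51, 5.23 and 0.88 CPM in the usual order of libraries (-3.66, edgeR).

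*Itgb2*, the beta chain shared by these 3 alpha chains (CD18), was found in every lineage. Non-classical monocyte-like cells held 745 CPM in WT laser and 571 in WT control (log2 difference 1.77), neutrophil-like cells 353 to 499 CPM (1.45), classical monocyte-like cells 359 to 402 CPM (1.14) and NK-like cells 370 to 467 CPM (0.91), all past the threshold in edgeR. MDM-B-like, microglia-like, cDC2-like, cDC1-like and macrophage-like cells lay between 114 and 357 CPM and did not pass in either direction. For microglia-like, macrophage-like and MDM-B-like cells this depended on the setting, as given in the section on processing. T-like cells (92.7 to 169 CPM, -0.83), B-like cells (35.1 to 64.0 CPM, -2.29) and migratory DC-like cells (30.4 CPM in 1 library, -2.82) were lower.

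**Figure D2:**
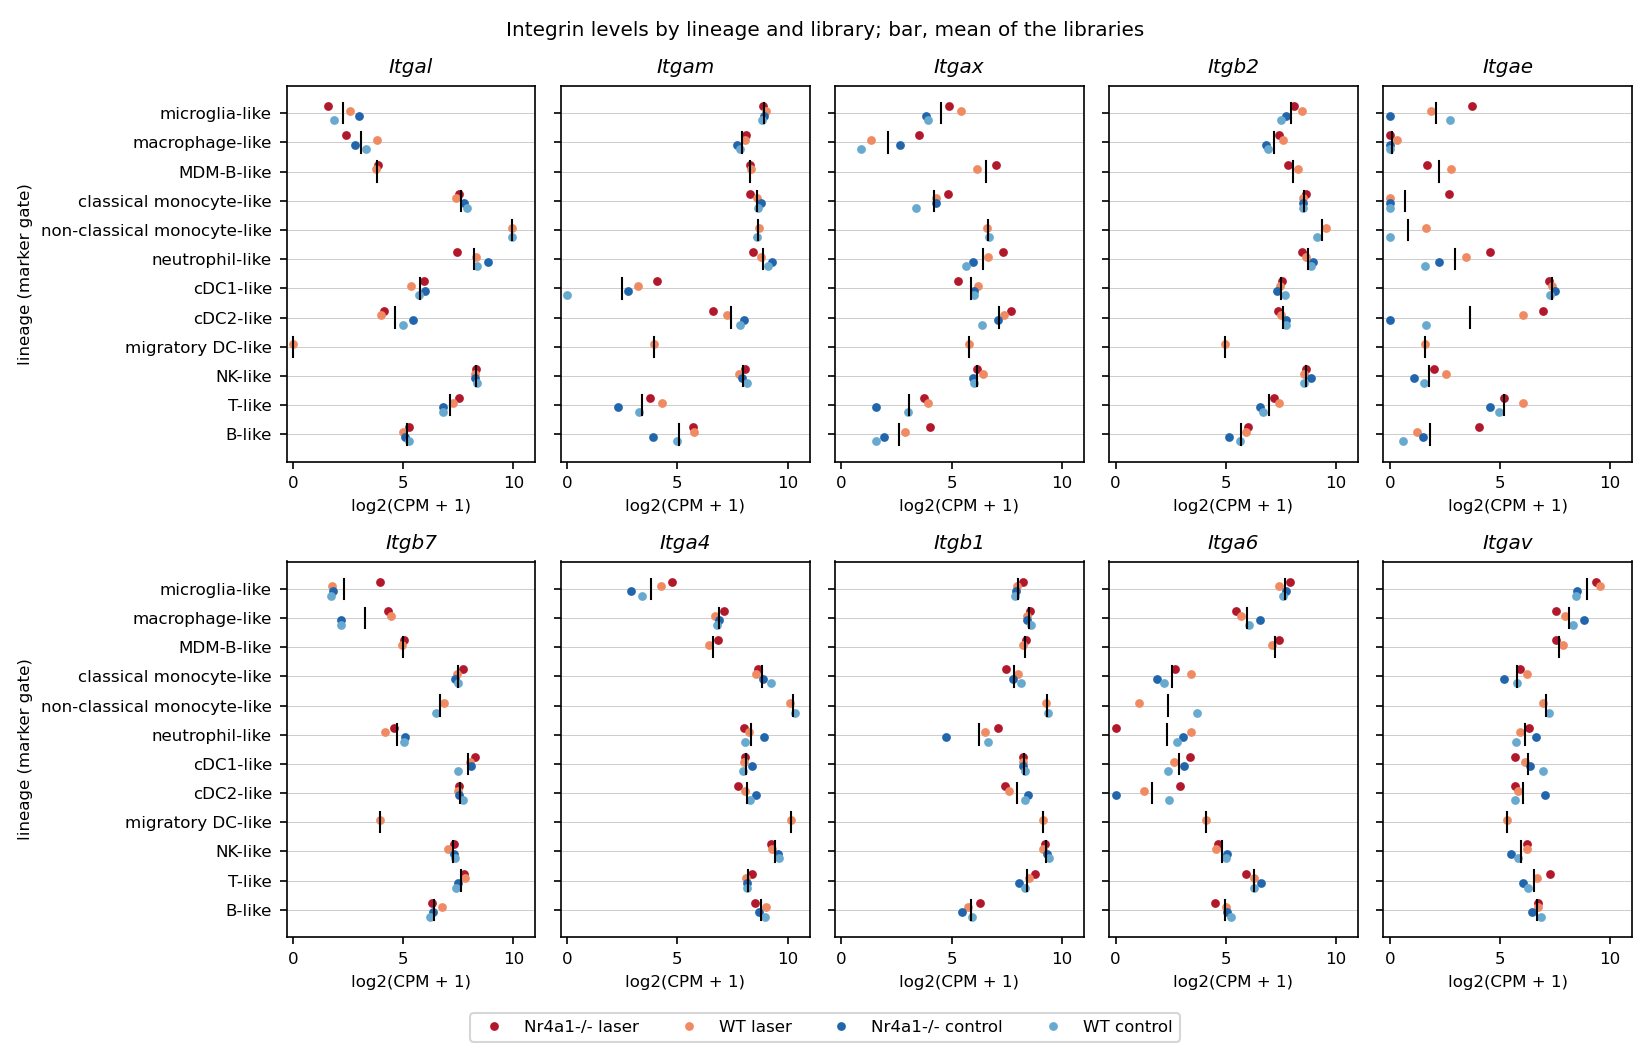
Level of each subunit in each library as log2(CPM + 1), by lineage, with a point for each library of at least 20 cells and a bar at the mean of the libraries. The 4 libraries lie close together for most genes, while cDC2-like *Itgae* runs from 0 in *Nr4a1*-/- control to 123 CPM in *Nr4a1*-/- laser.

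*Itgae*, the alpha E chain (CD103) that pairs with beta 7 and binds E-cadherin on epithelium, marked cDC1-like cells. These held 151 CPM in *Nr4a1*-/- laser and 163 in WT laser, against 183 in *Nr4a1*-/- control and 154 in WT control (6.00 ± 0.39, adjusted p = 3.3e-13, and 4.29 against the other cells summed). T-like cells held 35.4, 64.3, 22.4 and 30.2 CPM in the same order (3.37, adjusted p = 9.3e-08). cDC2-like cells held 123 CPM in *Nr4a1*-/- laser and 64.6 in WT laser, but 0 in *Nr4a1*-/- control and 2.17 in WT control, so their mean over libraries (47.5 ± 58.7 CPM, SD, n = 4) joins separate levels. Their difference from the other lineages (3.71) passed the test and that from the other cells summed (1.38) did not (edgeR adjusted p = 0.2939). In macrophage-like cells *Itgae* had 1 UMI in all 4 libraries. Among T-like cells, those with CD8 marker genes held more *Itgae* than those with CD4 in every library, with 49.5 against 14.5 CPM in *Nr4a1*-/- laser, 103 against 8.72 in WT laser, 42.0 against 0 in *Nr4a1*-/- control and 38.8 against 21.8 in WT control. In *Nr4a1*-/- laser this order rests on few UMIs, as all T-like cells there held 17 of *Itgae*. Gamma-delta T-like cells had 3, 14, 0 and 1 UMIs of *Itgae* in that order of libraries, too few to rank.

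*Itgb7*, the beta chain of alpha E beta 7 and of alpha 4 beta 7, the gut homing receptor, was highest in cDC1-like cells, with 308 CPM in *Nr4a1*-/- laser and 259 in WT laser, against 270.0 in *Nr4a1*-/- control and 176 in WT control (2.51 ± 0.19, adjusted p = 6.4e-13). T-like cells (166 to 223 CPM, 1.81), cDC2-like cells (177 to 210.2 CPM, 2.04) and classical monocyte-like cells (160.2 to 207 CPM, 1.92) followed and did not differ from one another as neighbors (adjusted p of 0.5171 and 0.8111). NK-like cells held 131 to 159.9 CPM (1.31). *Itgb7* was thus high in cells with little *Itgae*: classical monocyte-like cells had 5.51 CPM of *Itgae* or less. Microglia-like cells were lowest, with 14.2, 2.34, 2.54 and 2.26 CPM (-4.56), and macrophage-like cells had 19.0, 20.9, 3.48 and 3.51 CPM (-2.35). The calls for B-like (0.47, adjusted p = 0.0485) and neutrophil-like cells (-0.95, adjusted p = 0.037) lay near the threshold. Both were lost without the WT laser library (0.17 and -0.76) and without the *Nr4a1*-/- control library (0.42 and -1.04), the B-like call also without WT control (0.46) and the neutrophil-like call also without *Nr4a1*-/- laser (-0.80). Against the other cells summed, the B-like difference of *Itgb7* was -0.38.

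*Itga4*, the alpha 4 chain of VLA-4, which binds VCAM-1 and fibronectin, was higher in both monocyte-like lineages, NK-like, B-like and migratory DC-like cells and lower in microglia-like and both macrophage lineages. Non-classical monocyte-like cells held 1119 and 1282 CPM in the WT laser and WT control libraries (2.18), and the 41 migratory DC-like cells of WT laser held 1145 CPM (2.54). NK-like cells held 603, 625, 757 and 794 CPM in *Nr4a1*-/- laser, WT laser, *Nr4a1*-/- control and WT control (1.14). From NK-like down through classical monocyte-like, B-like, neutrophil-like, T-like, cDC2-like and cDC1-like cells no neighbor differed from the next (edgeR adjusted p of 0.09403 to 0.9958). The run compares neighbors only, and cDC1-like cells at its end held 254 to 336 CPM, below every NK-like library. *Itga4* then dropped between cDC1-like and macrophage-like cells (log2 difference 1.38, edgeR adjusted p = 1.5e-06). It dropped again between MDM-B-like and microglia-like cells (3.04, edgeR adjusted p = 5.8e-10). Microglia-like cells held 26.3, 18.2, 6.35 and 9.41 CPM, below every library of the other 11 lineages tested.

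*Itgb1*, the common beta chain of the matrix receptors (CD29), was broadly expressed. Non-classical monocyte-like cells (616 and 672 CPM in WT laser and WT control, 1.18), NK-like cells (575 to 697 CPM, 1.02), migratory DC-like cells (559 CPM, 1.42) and macrophage-like cells (339.7 to 388 CPM, 0.44) were higher. Neutrophil-like cells, with 137, 91.3, 25.9 and 99.6 CPM in the usual order (-1.77), and B-like cells, with 77.2, 53.0, 43.8 and 60.4 CPM (-2.70), were lower, and each differed from its neighbor above. *Itga6*, the alpha chain of laminin receptors, was highest in microglia-like cells, which held 243 CPM in *Nr4a1*-/- laser and 173 in WT laser, against 216 in *Nr4a1*-/- control and 194 in WT control (3.38 ± 0.15, adjusted p = 1.3e-22). MDM-B-like cells held 168 and 136 CPM in the *Nr4a1*-/- and WT laser libraries (3.18) and did not differ from microglia-like cells (adjusted p = 0.6276). T-like cells held 60.3 to 96.1 CPM. *Itga6* had under 12 CPM in every library of the monocyte-like, neutrophil-like, cDC1-like and cDC2-like cells.

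*Itgav*, the alpha v chain of vitronectin receptors and of integrins that release active TGF-beta, was highest in microglia-like cells. These held 657 CPM in *Nr4a1*-/- laser and 755 in WT laser, against 357 in *Nr4a1*-/- control and 348 in WT control (2.39 ± 0.19, adjusted p = 4.4e-12). Macrophage-like cells held 187, 249, 450.3 and 314 CPM in the same order (1.63). The step from microglia-like to macrophage-like cells did not pass (0.69, edgeR adjusted p = 0.05424), but it averages unlike libraries. In both laser libraries microglia-like cells lay well above macrophage-like cells, while they lay below them in *Nr4a1*-/- control and slightly above in WT control. MDM-B-like cells held 184 and 233 CPM in the *Nr4a1*-/- and WT laser libraries (1.06, adjusted p = 0.012), a call lost without either laser library (1.18 without *Nr4a1*-/- laser and 0.74 without WT laser). The 41 RPE-like cells, a trace of the non-immune pigment epithelium, held *Itgav* at 559 CPM over all libraries (95% Poisson interval 463 to 669), beside 28.2 CPM of *Itgb2*. A beta chain outside the members, *Itgb8*, was found there at 2977 CPM (2750 to 3218), and was named after its values were seen.

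Alpha and beta chains of a known pair did not always share their order of lineages. Over the 12 lineage means of log2(CPM + 1), which share libraries and depth, Pearson's r was 0.71 for *Itgal* with *Itgb2*, 0.69 for *Itgam* with *Itgb2* and 0.42 for *Itgax* with *Itgb2*. It was 0.56 for *Itga4* with *Itgb7*, 0.47 for *Itgae* with *Itgb7*, 0.18 for *Itga4* with *Itgb1*, 0.10 for *Itga6* with *Itgb1* and -0.0039 for *Itgav* with *Itgb1*. Spearman's rho was 0.69, 0.76 and 0.59 for *Itgal*, *Itgam* and *Itgax* with *Itgb2*, 0.20 and 0.49 for *Itga4* and *Itgae* with *Itgb7*, and 0.31, 0.15 and 0.035 for *Itga4*, *Itga6* and *Itgav* with *Itgb1*. The value for *Itga4* with *Itgb7* thus depends on the measure. Among 12345 genes outside the member and marker lists, the gene most like *Itgb2* over the 12 lineages was *Myo1f*, a myosin of leukocytes (r = 0.96), and talin itself, *Tln1*, was the next but one (r = 0.92). *Itgam* was most like *Fcer1g*, the common gamma chain of Fc receptors (r = 0.92), followed by *Zeb2* and *Fcgr3*. *Itgav* was most like *Pmp22* (r = 0.95), followed by *Tenm2* and *Ptprm*. The other nearest genes were *Fgfr1op2* for *Itgal* (r = 0.93), *Gcnt2* for *Itgax* (0.79), *Sema4f* for *Itgae* (0.88), *Cmas* for *Itgb7* (0.93), *Ap4s1* for *Itga4* (0.92), *Id2* for *Itgb1* (0.90) and *Abcd3* for *Itga6* (0.93).

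Genes that act with the members were described from 3 lists. Of 28 genes of integrin activation and adaptors, 27 could be tested. Non-classical monocyte-like cells were higher for 16 and lower for 0 (median log2 difference 0.77, against -0.0074 over all genes tested), beside 15% and 6.29% of all genes. Classical monocyte-like cells were higher for 18 and lower for 2 (median 0.65, against 0.064), beside 25.5% and 10.1%. Neutrophil-like cells were higher for 13 and lower for 3 (median 0.50, against -0.33), beside 21.5% and 23.2%. Microglia-like cells were higher for 7 and lower for 14 (median -0.44, against 0.049), beside 32.5% and 22.9%. The largest difference was that of *Skap1*, lower in cDC2-like cells (log2 difference -7.77, SE 1.81). *Tln2*, a talin, was 6.28 higher in microglia-like cells, and *Cytip*, a regulator of cytohesin, 4.45 lower there (log2 difference -4.45). *Cd226*, an adhesion receptor that associates with LFA-1, was 4.36 higher in T-like cells. B-like cells were higher for 9 and lower for 13 (33.5% and 20.2% of all genes), and T-like cells for 7 and 13 (33.1% and 20.3%). In microglia-like, B-like and T-like cells the share of the list called higher was not above that of all genes. Of 22 ligands and counter-receptors, 11 could be tested. Microglia-like cells were higher for 5 and lower for 0 of them, beside 32.5% and 22.9% of all genes, T-like cells for 4 and 5 (33.1% and 20.3%), and cDC1-like cells for 1 and 4 (22.3% and 13.9%). *Jam2* was 6.19 higher in microglia-like cells, *Thy1* 6.77 higher in T-like cells and *Cdh1*, E-cadherin and the ligand of alpha E beta 7, 6.47 higher in cDC2-like cells. The *Cdh1* value joins separate levels, as both laser libraries lay far above both control libraries in these cells. Of 16 other subunits, 8 could be tested: *Itga2* was 9.96 higher in NK-like cells, *Itga8* 6.52 and *Itga3* 6.28 higher in cDC1-like cells, and *Itgb5* 4.55 higher in microglia-like cells. *Spp1*, also a ligand, was a gate gene of MDM-B-like cells and is no finding there.

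The second comparison asked which subunits differ between laser and control eyes. Each ratio of CPM is given for the *Nr4a1*-/- pair and then the WT pair with an exact 95% interval for counting error only, and with 1 library per group. A gene was called when both pairs reached 1.5-fold the same way and, in each pair, the library with more UMIs of the gene held 20 or more. Of the members that could be read, 12 results in 7 lineages were called, 9 higher and 3 lower after laser. In 3 of these the library with the higher level held under 20 UMIs in the *Nr4a1*-/- pair and the call rested on the deeper control library (*Itgax* in microglia-like and classical monocyte-like cells and *Itgae* in T-like cells), which leaves 9 with 20 UMIs there, a count made after seeing the data. Of the 12 calls, 9 were also made with TMM scaling, 7 with a looser gate, 4 with a stricter gate, which left too few cDC2-like cells, 11 with a mitochondrial limit of 10%, 2 at a fold of at least 2, 6 with at least 50 UMIs and 1 after thinning to 2000 UMIs per cell, where fewer UMIs could pass. That 1 was *Itgav* in microglia-like cells, which was called in 6 of the 7 alternatives, while no other call was made in more than 4 of the 7.

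**Figure D3:**
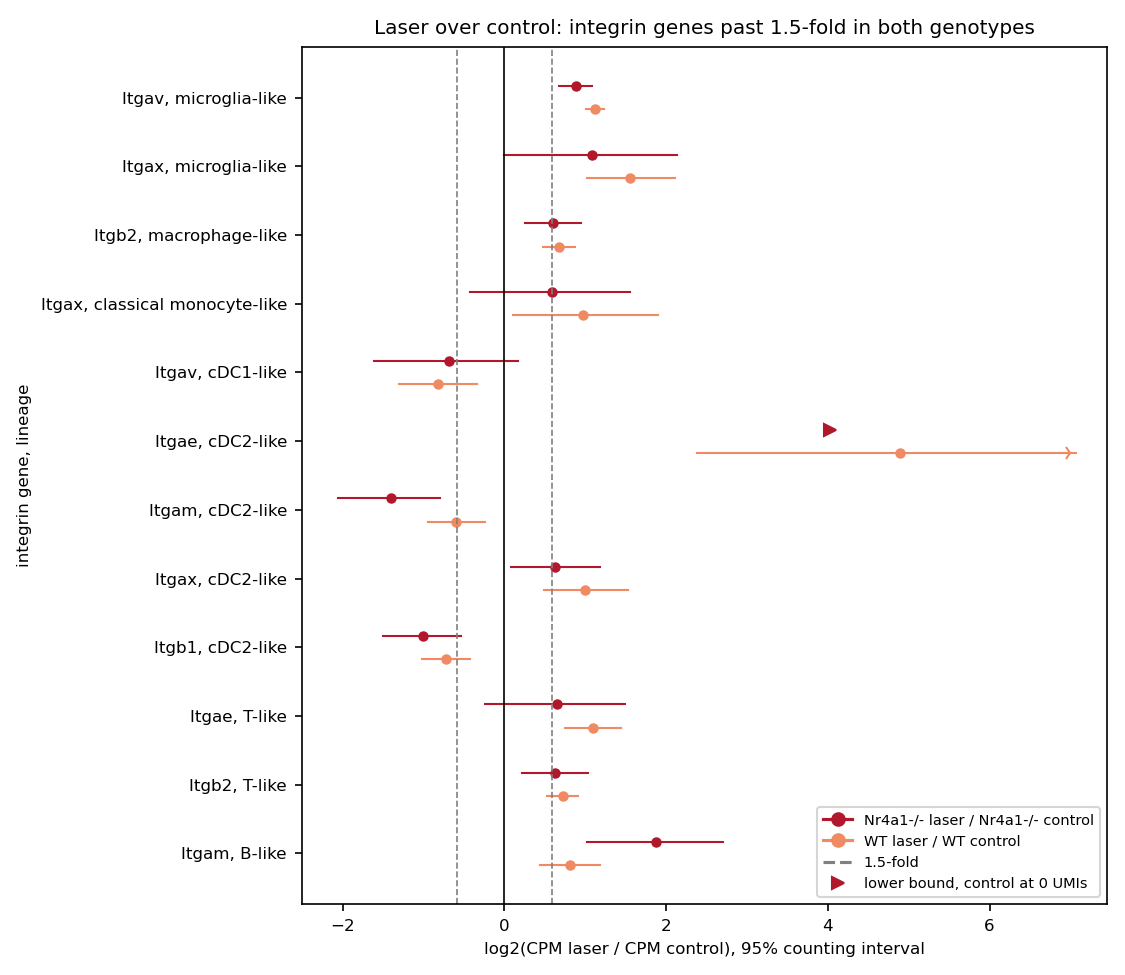
Ratio of CPM, laser over control, on a log axis for the 12 member results called, with the *Nr4a1*-/- pair above the WT pair and bars for the exact 95% interval of counting error; dashed lines mark 1.5-fold and the triangle a lower bound where control had 0 UMIs. *Itgae* in cDC2-like cells lies farthest right, at least 16.3-fold in the *Nr4a1*-/- pair, and *Itgav* in microglia-like cells has the narrowest intervals.

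In microglia-like cells 2 of 6 members were called higher, where 6.3% of all genes tested were. *Itgav* held 657 CPM (325 UMIs) in *Nr4a1*-/- laser against 357 CPM (563 UMIs) in *Nr4a1*-/- control, a ratio of 1.84 (1.60 to 2.11), and 755 CPM (2577 UMIs) in WT laser against 348 CPM (924 UMIs) in WT control, a ratio of 2.17 (2.01 to 2.34). Both laser libraries were above both control libraries. The *Itgav* ratios stayed between 1.63 and 2.01 in the *Nr4a1*-/- pair and between 2.06 and 2.17 in the WT pair under other gates, TMM scaling, thinning and a mitochondrial limit of 10%. At 2000 UMIs per cell, 53.7% of microglia-like cells in *Nr4a1*-/- laser and 56.1% in WT laser had a UMI of *Itgav*, against 38.6% in *Nr4a1*-/- control and 35.8% in WT control (unthinned 69.2%, 81.2%, 72.0% and 67.3%). *Itgax* in microglia-like cells was 2.13-fold higher after laser in the *Nr4a1*-/- pair (1.00 to 4.38, 14 and 21 UMIs) and 2.93-fold in the WT pair (2.04 to 4.31, 143 and 38 UMIs), and 11.5-fold in the WT pair after thinning. Thinned shares of cells with a UMI of *Itgax* were 2.11% in *Nr4a1*-/- laser and 10.1% in WT laser, against 2.03% in *Nr4a1*-/- control and 0.926% in WT control, so the share was higher after laser only in the WT pair. *Itgb2* in these cells reached 1.29 in the *Nr4a1*-/- pair and 1.96 in the WT pair and was not called, although it was called after thinning. The summed level of the 8 microglia markers was 2488 CPM in *Nr4a1*-/- laser and 2486 in WT laser, against 3668 in *Nr4a1*-/- control and 3348 in WT control. Macrophage markers summed to 196 and 81.8 CPM in the laser libraries, against 78.7 and 57.6 in the control libraries, *Nr4a1*-/- before WT in each, and their part in the result was not tested.

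In cDC2-like cells 2 of 8 members were called higher (5.52% of all genes tested) and 2 lower (6.37%). *Itgae* had 37 UMIs (123 CPM) in *Nr4a1*-/- laser against 0 in *Nr4a1*-/- control, at least 16.3-fold higher against a floor of 3 counts in that library (7.53 CPM). In the WT pair it had 88 UMIs (64.6 CPM) in WT laser against 1 UMI (2.17 CPM) in WT control, a ratio of 29.8 (5.21 to 1190). A UMI of *Itgae* was found in 11 of 43 cDC2-like cells in *Nr4a1*-/- laser (25.6%) and 21 of 91 in WT laser (23.1%), against 0 of 32 in *Nr4a1*-/- control, whose exact upper limit is 10.9%, and 1 of 40 in WT control (2.5%). Thinned to 2000 UMIs, 4 of 41 and 9 of 89 cells in the *Nr4a1*-/- and WT laser libraries had one (exact 95% intervals 2.72% to 23.1% and 4.73% to 18.3%), against 0 of 30 and 0 of 40 in the control libraries, whose upper limits are 11.6% and 8.81%. At this depth the intervals of laser and control overlap. As a background, 1 of 1013 macrophage-like cells (median 7741 UMIs) had a UMI of *Itgae*, against 33 of 206 cDC2-like cells (median 12221.5 UMIs), and 0 of 41 RPE-like cells did. *Cdh1*, which encodes the ligand of alpha E beta 7, moved in the same cells, with 103 CPM in *Nr4a1*-/- laser against 7.53 in *Nr4a1*-/- control (ratio 13.7) and 90.3 CPM in WT laser against 4.33 in WT control (ratio 20.8). The summed cDC1 markers in cDC2-like cells were 536 CPM in *Nr4a1*-/- laser and 385 in WT laser, against 539.8 in *Nr4a1*-/- control and 455 in WT control. The neutrophil markers moved with laser, with 1234 and 800.0 CPM against 213 and 286 CPM in the same order, and their part in these results was not tested.

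*Itgax* was also higher after laser in cDC2-like cells, by 1.55-fold in the *Nr4a1*-/- pair (1.06 to 2.27) and 1.99-fold in the WT pair (1.40 to 2.88), although the first was 1.01 after thinning. *Itgam* was lower there, at 0.377 in the *Nr4a1*-/- pair (0.24 to 0.57, 29 and 102 UMIs) and 0.661 in the WT pair (0.52 to 0.84, 207 and 106 UMIs), and so was *Itgb1*, at 0.496 and 0.604. *Vcl*, vinculin, which links integrins to actin, had ratios of 0.459 and 0.56 in these cells. In cDC1-like cells 1 of 8 members was called lower, *Itgav* at 0.619 (0.33 to 1.12) and 0.567 (0.41 to 0.79), where 4.62% of all genes tested were lower. *Itgae* in cDC1-like cells, which held it in every library, had ratios of 0.824 and 1.06.

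In T-like cells 2 of 8 members were called higher (4.22% of all genes tested). *Itgae* was 1.58-fold higher in the *Nr4a1*-/- pair (0.85 to 2.80, 17 and 46 UMIs), an interval that holds 1, and 2.13-fold in the WT pair (1.69 to 2.71, 247 and 102 UMIs). *Itgb2* was 1.55-fold (1.16 to 2.05) and 1.65-fold higher (1.45 to 1.88) in the same order. Both calls were lost with TMM scaling, where the *Nr4a1*-/- ratios were 1.44 for *Itgae* and 1.41 for *Itgb2*, and after thinning, where they were 1.17 and 1.36. In the T-like cells with CD8 marker genes alone, *Itgae* held 49.5 CPM (9 UMIs) in *Nr4a1*-/- laser against 42.0 CPM (39 UMIs) in *Nr4a1*-/- control, short of 1.5-fold, and 103 CPM (193 UMIs) in WT laser against 38.8 CPM (63 UMIs) in WT control. *Itga1*, the alpha chain of a collagen receptor on tissue-resident T cells, had ratios of 1.83 and 4.02, and *Icam1* of 1.93 and 1.87. In macrophage-like cells 1 of 6 members was called higher, *Itgb2* at 1.51 (1.20 to 1.92) and 1.59 (1.39 to 1.83), where 3.39% of all genes tested were. This call lay at the threshold: it was lost with the mitochondrial limit of 10% (just under 1.5 in the *Nr4a1*-/- pair), after thinning (1.43 in that pair), with the stricter gate (1.38 in that pair) and with the looser gate (just under 1.5 in the WT pair). *Itgb7* in macrophage-like cells had 18 and 83 UMIs in the *Nr4a1*-/- and WT laser libraries against 4 and 8 in the control libraries, ratios of 5.44 (1.79 to 22.1) and 5.96 (2.89 to 14.3), and was not called because the *Nr4a1*-/- pair lay under 20 UMIs. The share of macrophage-like cells with a UMI of *Itgb7* after thinning was 4.14% in *Nr4a1*-/- laser and 4.86% in WT laser, against 0.685% in *Nr4a1*-/- control and 0.694% in WT control, and 1 of 41 RPE-like cells (median 3253 UMIs) had one unthinned. Beside these results, the summed classical monocyte markers in macrophage-like cells were 625 CPM in *Nr4a1*-/- laser and 664 in WT laser, against 124 in *Nr4a1*-/- control and 138 in WT control, and their part was not tested. *Itgav* in macrophage-like cells was 0.414 and 0.793, lower in both pairs and past 1.5-fold only in the *Nr4a1*-/- pair.

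In B-like cells 1 of 8 members was called higher, *Itgam* at 3.67 (2.04 to 6.53, 23 and 30 UMIs) and 1.75 (1.35 to 2.28, 119 and 123 UMIs), where 2.14% of all genes tested were. The summed macrophage markers in B-like cells were 344 CPM in *Nr4a1*-/- laser and 186 in WT laser, against 38.3 in *Nr4a1*-/- control and 68.1 in WT control, and their part in the *Itgam* result was not tested. In classical monocyte-like cells 1 of 8 members was called higher, *Itgax* at 1.5 (0.74 to 2.93, 15 and 27 UMIs) and 1.96 (1.08 to 3.74, 42 and 16 UMIs), where 1.15% of all genes tested were. After thinning these *Itgax* ratios were 0.869 and 0.705. No member was called in NK-like cells (0 of 9, background 1.42% in either direction) or in neutrophil-like cells (0 of 5, background 20.1%). *Itga4* in NK-like cells had ratios of 0.796 and 0.787. Among genes that act with the members, *Fn1*, the fibronectin that alpha 4 beta 1 binds, had 39 UMIs against 0 in microglia-like cells of the *Nr4a1*-/- pair and a ratio of 18.3 in the WT pair, and ratios of 3.02 and 1.57 in macrophage-like cells. *Vcam1*, the other ligand of alpha 4 beta 1, had ratios of 0.218 and 0.479 in macrophage-like cells.

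The third comparison set *Nr4a1*-/- against WT within laser and within control, by the same rule. A single member result was called among 9 lineages, *Itgam* in T-like cells, lower at 0.665 in the laser pair (6 and 72 UMIs) and 0.455 in the control pair (8 and 29 UMIs), 1 of 10 members there against 3.02% of all genes tested. With 6 and 8 UMIs in the *Nr4a1*-/- libraries these ratios have wide intervals, with a stricter gate the control ratio was 1.41, and the call was also made in only 2 of the 7 alternatives (TMM scaling and the mitochondrial limit of 10%). No member was called in B-like (0 of 8, background 2.51%), NK-like (0 of 9, 2.74%), neutrophil-like (0 of 7, 3.8%), microglia-like (0 of 7, 3.82%), macrophage-like (0 of 7, 2.22%), classical monocyte-like (0 of 8, 3.94%), cDC2-like (0 of 7, 4.31%) or cDC1-like cells (0 of 8, 3.2%). *Itgax* in MDM-B-like cells could be compared only in the laser pair, with 127 CPM in *Nr4a1*-/- laser against 70.6 in WT laser, a ratio of 1.80 (1.25 to 2.58). *Itgb7*, the member nearest to *Nr4a1*, had ratios of 1.19 and 1.53 in cDC1-like cells in the laser and the control pair. Of the other subunits, *Itga5*, an alpha chain of the fibronectin receptor that also lies on chromosome 15, was lower in B-like cells (0.57 and 0.252) and NK-like cells (0.422 and 0.33) and higher in cDC1-like cells (1.56 and 1.72).

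Antibody tags read the protein of 4 members in the same cells, and the panel held no isotype control. Tags are given per 1000 tag UMIs of the lineage, with cells over 10 times the median tag count of their lineage and library left out, a limit chosen after seeing the data. That limit was set because single cells could hold most of a tag: 1 cDC1-like cell in *Nr4a1*-/- laser held 5836 of the 8129 CD11c tags of its library. The *Nr4a1*-/- control library also stood apart, with 361 CD11c tags (0.039% of its tags, against 0.38% to 1.47% in the others) and 4101 CD103 tags (0.443%, against 0.061% to 0.109%), so tag levels are not compared between libraries. CD11a per 1000 tags was highest in non-classical monocyte-like cells, with 83.6 in WT laser and 97.5 in WT control, and lowest in migratory DC-like cells (2.20 in WT laser) and macrophage-like cells (3.16, 4.05, 1.84 and 3.21 in *Nr4a1*-/- laser, WT laser, *Nr4a1*-/- control and WT control). CD11b per 1000 tags was highest in microglia-like (269, 226, 302 and 320.5) and neutrophil-like cells (249, 196, 224 and 230.0 in the same order). These orders depend on the scale. As mean tag counts per cell, with no cell left out and averaged over libraries, CD11b was highest in neutrophil-like cells (152, against 35.9 in microglia-like cells, 99.6 in MDM-B-like cells and 76.5 in macrophage-like cells), and CD11a was lowest in microglia-like cells (0.79, against 4.07 in migratory DC-like cells), while its highest lineage was the same. Per 1000 tags again, CD11b in cDC2-like cells was 122, 110.4, 141 and 163, against 39.2, 32.8, 12.8 and 13.5 in cDC1-like cells. CD11c was highest in cDC1-like cells (36.0, 20.6, 7.83 and 76.4) and stood at 15.7, 12, 0.93 and 14.6 in cDC2-like cells, the opposite order of these 2 lineages from the *Itgax* transcript. CD103 was highest in cDC1-like cells in all 4 libraries (16.1, 7.49, 91.9 and 13.4).

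**Figure D4:**
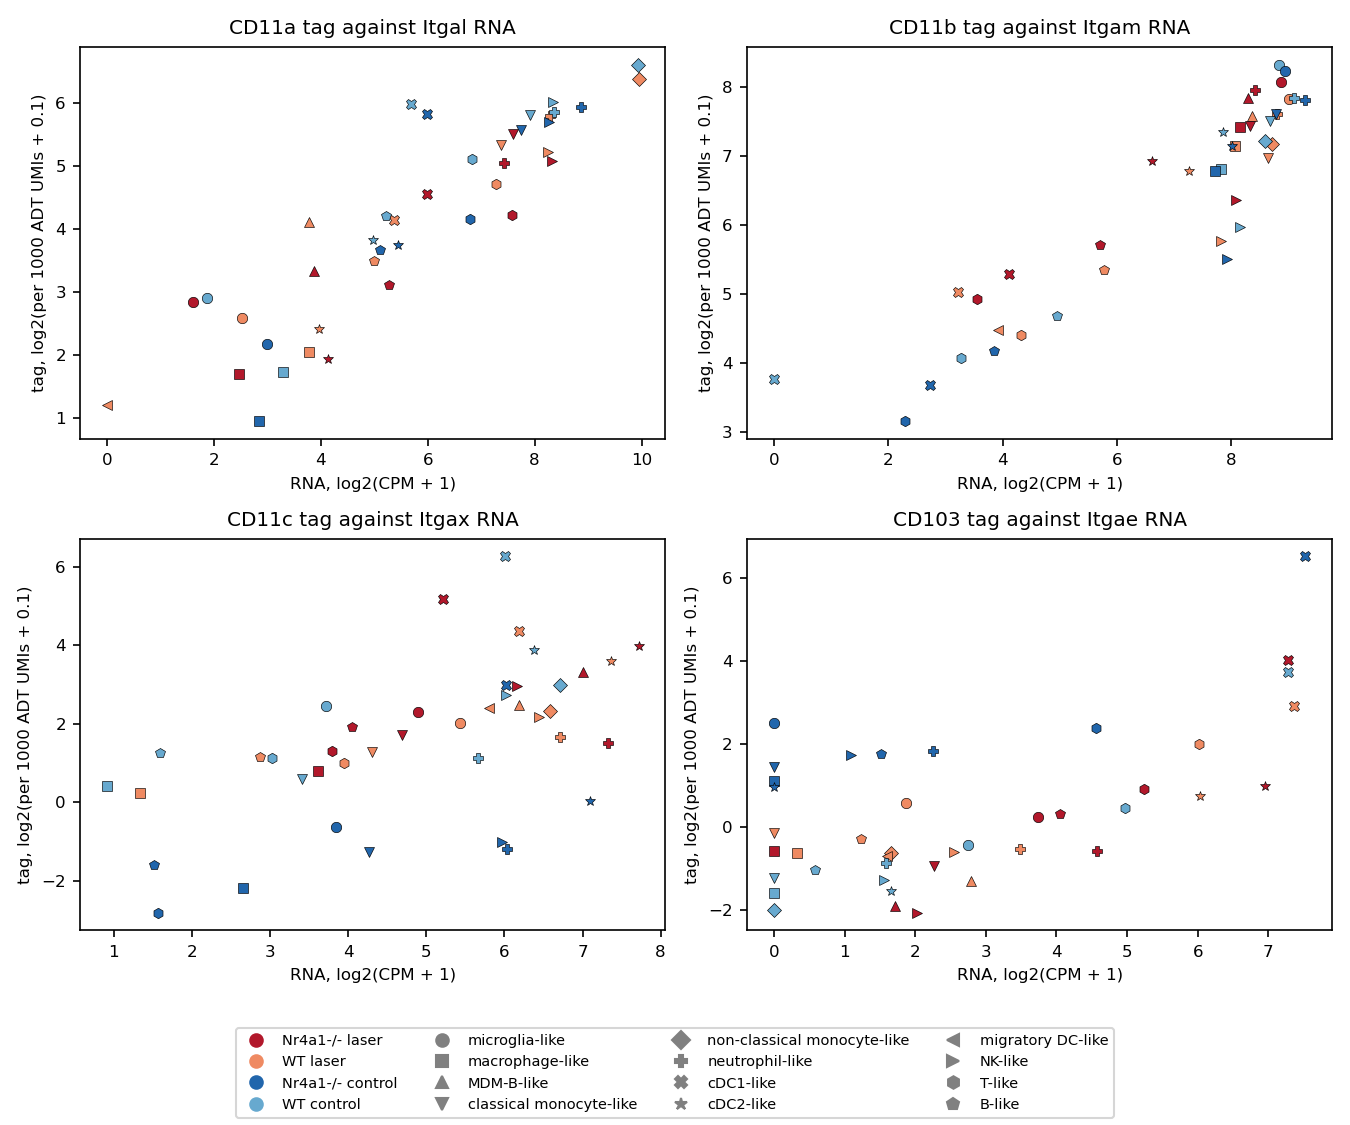
Level of 4 integrin tags, as log2(tags per 1000 tag UMIs + 0.1), against the transcript of the same subunit, as log2(CPM + 1), for 12 lineages. There is a point for each lineage and library of at least 20 cells. Cells over 10 times the median tag count were left out. CD11a and CD11b follow their transcripts (Spearman's rho 0.96 and 0.92), and CD11c and CD103 follow less closely (0.75 and 0.79).

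Across the 12 lineages, Spearman's rho of tag with transcript was 0.96 for CD11a, 0.92 for CD11b, 0.75 for CD11c and 0.79 for CD103, and without the *Nr4a1*-/- control library it was 0.94, 0.92, 0.69 and 0.78 in that order. With no cell left out it was 0.94, 0.88, 0.79 and 0.66. Within single libraries, also with no cell left out, it ran from 0.62 to 0.94 for CD11a, 0.77 to 0.93 for CD11b, 0.65 to 0.81 for CD11c and 0.36 to 0.80 for CD103, over 9 to 12 lineages. These lineages share libraries and depth. Cells with and without a UMI of the transcript were also compared within a lineage and library. Those with a UMI had the higher mean tag count in 33 of 37 sums for CD11a and 33 of 34 for CD11b. For CD11c it was 34 of 35 and for CD103 12 of 13. These tag counts were not scaled to the RNA or tag depth of each cell, and the part of depth in them was not tested. Within each laser library, cDC2-like cells with an *Itgae* UMI had more CD103 tags than those without. This does not compare laser with control, because CD103 tags stood apart in *Nr4a1*-/- control. The 11 cells with an *Itgae* UMI in *Nr4a1*-/- laser had a mean of 1.73 CD103 tags, and 63.6% had at least 1, against 0.156 tags and 12.5% in the 32 cells without. In WT laser the 21 cells with an *Itgae* UMI had a mean of 3.38 CD103 tags (81.0% with at least 1), against 0.243 (17.1%) in the 70 without. T-like cells gave the same order, with 1.31 against 0.14 CD103 tags in *Nr4a1*-/- laser, 7.08 against 0.428 in WT laser, 5.96 against 1.43 in *Nr4a1*-/- control and 1.51 against 0.324 in WT control for cells with against without *Itgae*. In B-like cells, those with an *Itgam* UMI had 45.4, 50.1, 22.3 and 58.3 CD11b tags on average in *Nr4a1*-/- laser, WT laser, *Nr4a1*-/- control and WT control, against 2.92, 6.13, 3.26 and 4.34 in those without.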

How the data were processed

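RNA and antibody tags were measured in sorted CD45+ cells, with 1 RNA and 1 tag library for each of 4 groups. Cell Ranger 7.0.1 and the mm10 genome are given for the mapping, and what the authors deposited are filtered matrices of raw counts (UMIs per gene or tag and cell) without normalization. The sources differ on the reagent kit, with v2 in the labels and v3 in the methods. The 4 tag samples all carry the same genotype and treatment fields, against their titles, and were mapped by title.

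The limits for a cell were 200 to 5000 detected genes and a mitochondrial share of 15% or less, and doublets were limited only by the upper gene limit and by the lead of 2 markers in the lineage gate, without a doublet caller. The gate is a rule of this re-analysis, so its lineages need not equal the study's clusters. Sums of at least 20 cells were tested with edgeR 4.0.16 in R 4.3.3 (TMM, filterByExpr, robust quasi-likelihood, Benjamini-Hochberg at 0.05), with DESeq2 1.42.0 as an alternative. Cells are not replicates, and the 4 libraries served as repeats of a lineage difference only. They differ in genotype and laser, so these p-values measure a spread between unlike pooled libraries, estimated over all lineages together. MDM-B-like and non-classical monocyte-like cells had 2 libraries each. Migratory DC-like cells had 1, so their error comes from the other lineages alone. Ratios between groups have exact conditional binomial 95% intervals, shares exact Clopper-Pearson intervals, and for a fold against a library at 0 the floor was 3 counts. All cover counting error only. RNA depth of 7848548 to 38052948 UMIs per library sets this precision. The lineage test was checked on simulated counts before use. Other tools were matplotlib 3.10.9, pandas 2.3.3, scipy 1.17.1 and numpy 2.4.6 in Python 3.11.15.

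All 10 members were named in every lineage. Other genes named are the 3 most correlated with each member, up to 4 of each of 3 lists with the largest lineage difference, and listed genes called for laser or genotype. The members, lists and markers were chosen with earlier results of these data known. Alternatives were other scalings, filters, gates, thresholds and thinning, a mitochondrial limit of 10%, and leaving out each library. RPE-like cells and basophil or mast cell-like cells were too few per library and were only described. Protein sequences were not used here.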

Additional observations from a re-analysis of the deposited data

How the results depend on the processing

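Of 120 lineage tests, 78 passed, and 75 to 78 passed with *Nr4a1*-/- laser, WT control or *Nr4a1*-/- control left out and 76 to 86 with other scaling, tools, filters, gates or limits. Without WT laser, with sums of at least 50 cells, and under the 2 references added after seeing the data (migratory DC-like cells left out, and other cells summed) migratory DC-like cells could not be tested, and 71, 76, 81 and 89 of 110 passed, beside 73 of the same 110 in the main analysis. Against the other cells summed, *Itgb7* in B-like cells turned to -0.38 and *Itgam* in cDC2-like cells to -0.027. *Itgam* in cDC2-like cells (0.90) also lost its call without WT laser (0.81), WT control (0.71) or *Nr4a1*-/- control (0.64). Other calls lost without 1 library were *Itga6* in neutrophil-like and non-classical monocyte-like cells and *Itgax* in classical monocyte-like and MDM-B-like cells. So were *Itgae* in macrophage-like cells and *Itga4* and *Itgav* in MDM-B-like cells. *Itgb7* lost its call in B-like, neutrophil-like, MDM-B-like and non-classical monocyte-like cells. Among calls gained, *Itgb2* in microglia-like cells passed as higher with RLE scaling, DESeq2, no filter on low counts, either other gate, or either control library left out. In macrophage-like cells *Itgb2* passed as lower with sums of at least 50 cells, without WT laser, and under both added references. In MDM-B-like cells it passed as higher against the other cells summed. For laser, 12 results were called. There were 3 calls after thinning (1 of the 12, and *Itgav* in T-like and *Itgb2* in microglia-like cells), 5 with a gate of 4 markers and a lead of 3 (4 of the 12, and *Itgav* in neutrophil-like cells, lower), 12 with a gate of 2 markers and a lead of 1 (7 of the 12 and 5 others), 2 at a fold of 2 and 6 with at least 50 UMIs (all among the 12). After thinning, *Itgax* in classical monocyte-like cells turned to 0.869 in the *Nr4a1*-/- pair and 0.705 in the WT pair. For genotype there was 1 call, which became 2 with TMM scaling (*Itgav* in cDC1-like cells added), 1 other result with either other gate (*Itgax* in classical monocyte-like cells with the looser gate, *Itga4* in neutrophil-like cells with the stricter gate) and 0 after thinning, at a fold of 2 and with at least 50 UMIs, and *Itgam* in T-like cells turned to 1.41 in the control pair with the stricter gate. With no cell left out, the highest over the lowest lineage was 15.9 for the CD11b tag per 1000 tags (microglia-like over T-like cells) and 26.6 as mean counts per cell, where neutrophil-like cells were the highest. For CD11c it was 180 (cDC1-like over macrophage-like cells), 119 as mean counts per cell (cDC1-like over T-like cells) and 34.7 without extreme cells. For CD103 it was 140 (cDC1-like over MDM-B-like cells) and 75.8 (over non-classical monocyte-like cells) with a gate of 2 markers and a lead of 1. Where not stated, the cause of a change was not tested. No paired analysis was possible because each group is 1 library and no replicate numbers pair samples. Depth limits *Itgae*, *Itgal*, *Itgax* and *Itgb7* in macrophage-like and microglia-like cells, and *Itga4* in microglia-like cells. Sums there hold under 20 UMIs in 1 or more libraries.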
